A study of Rattus norvegicus with 6 samples.

Results

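The neurotrophins and their receptors were followed in whole rat ovaries around birth through 5 genes: the ligands Bdnf and Ntf3, the shared receptor Ngfr, and the receptor tyrosine kinases Ntrk2 and Ntrk3. Their members are all probe sets whose array annotation gives one of these symbols alone, 15 of the 8799 on the array: 7 for Bdnf and 2 for each of the other 4 genes. Neurotrophins are secreted as larger precursors that proteases cleave to the mature growth factors. Each mature ligand binds a preferred Trk receptor, BDNF and neurotrophin 4 binding TrkB (Ntrk2) and neurotrophin 3 binding TrkC (Ntrk3), and all bind the p75 receptor (Ngfr). In rodent ovaries this signalling is known for its part in the survival of oocytes and the formation and early growth of follicles.

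RNA was hybridized to 6 Affymetrix rat arrays of short oligonucleotide probes, 2 in each of 3 groups: ovaries removed at birth and cultured for 7 days on floating filters in serum-free medium with insulin, transferrin and ascorbic acid (cultured), ovaries of 4-day-old pups (P4), and ovaries of newborn pups (P0). Each array held a pool of about 20 ovaries, and the labels give no strain and no genetic change. The 2 pools of a group are described as independent. The series design also mentions progesterone given to cultured ovaries, which no sample label states, so both cultured arrays are taken as 1 condition as labelled, and whether either was treated is not settled. Between replicate arrays the log2 values correlated at 0.962 to 0.969 across probe sets. Defining ovarian markers were present: oocyte genes (Zp1, Zp2, Zp3, Gja4 and Kit) and stromal genes (such as Col1a1 and Dcn) were above the control level of 20 described next on all 6 arrays.

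Most of these probe sets read near controls with no target. The highest reading on any array of the 23 control probe sets with no transcript added on either strand (bacterial, yeast and mouse sequences) was an intensity of 20. On all 6 arrays 5 of the 15 neurotrophin probe sets exceeded it, against 54.3% of all 8740 probe sets that are not controls. These were 1 each for Bdnf, Ntf3 and Ntrk3 and both for Ngfr. A second Bdnf probe set exceeded it on 5 arrays, and 8 of the 15, including both for Ntrk2, exceeded it on none, against 25.3% of all 8740. The stricter level set by the opposite-strand probe sets of spiked transcripts was 137, and on all 6 arrays only the 2 Ngfr probe sets lay above it, against 18.8% of all 8740. An intensity under these levels is a bound, and does not show that the transcript was missing.

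**Figure D1:**
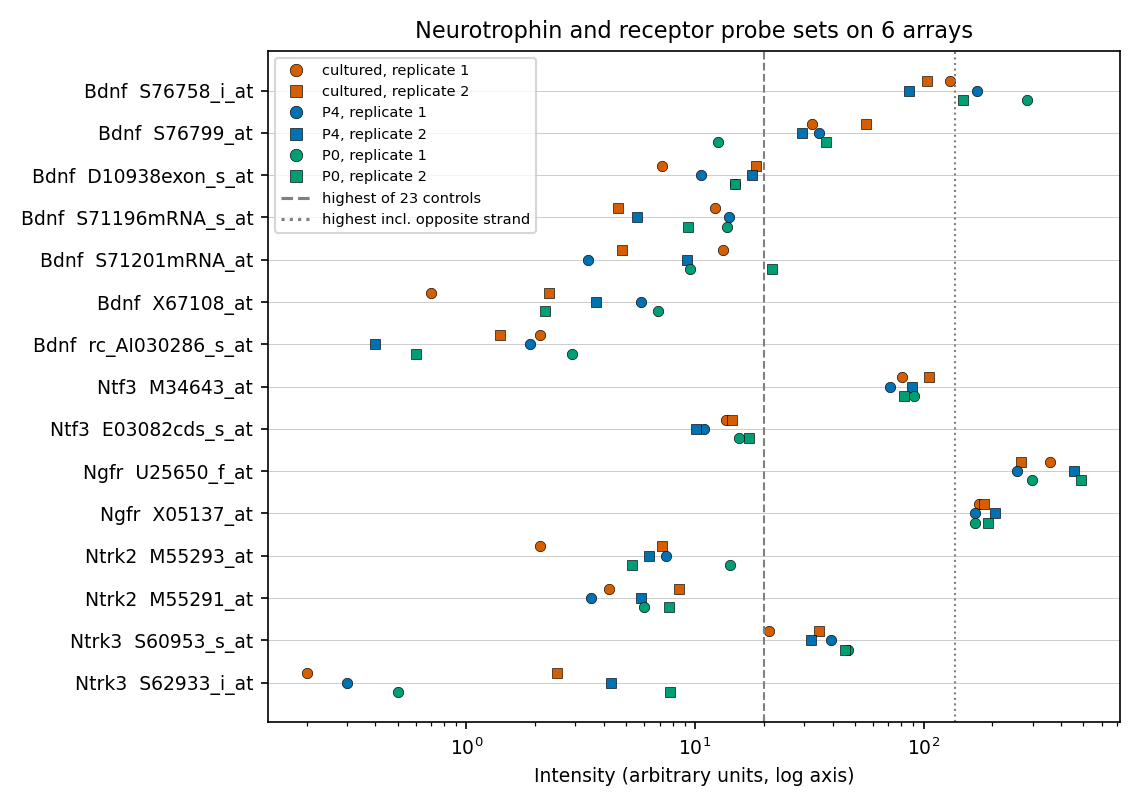
Intensity (log axis, arbitrary units) of the 15 probe sets on each array, coloured by group and shaped by replicate, with the control levels of 20 (dashed) and 137 (dotted). Both Ngfr probe sets lie right of both lines on all 6 arrays, and both Ntrk2 probe sets lie left of both.

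Bdnf encodes brain-derived neurotrophic factor, the main ligand of TrkB, and is transcribed from several alternative first exons. The RefSeq table holds 6 windows of 300 bases (250 before and 50 after a transcript start) for it and 3 for Ntf3. The one shown is the only one of these 6 with the core of the cyclic AMP response element, the sequence bound by CREB, a transcription factor that Trk signalling activates and that drives Bdnf in neurons. It lies at chr3:116637608-116637907 (GRCr8, plus strand), with that core in capitals.
Bdnf start window: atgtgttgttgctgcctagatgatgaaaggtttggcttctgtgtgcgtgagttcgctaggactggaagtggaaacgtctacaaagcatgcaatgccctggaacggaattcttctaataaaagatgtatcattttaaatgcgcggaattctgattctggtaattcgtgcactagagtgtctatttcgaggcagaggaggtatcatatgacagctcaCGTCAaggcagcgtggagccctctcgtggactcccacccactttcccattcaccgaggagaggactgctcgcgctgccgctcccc
The search covered CGTCA and TGACG, which are the same core on either strand and both lie within the full element TGACGTCA. At least 1 core stood in 21.2% of the 33469 windows of this length and the full element in 1.83%, and neither was found in the 3 Ntf3 windows. The files do not say which start each Bdnf probe set reads.

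The Bdnf probe set furthest above the controls, S76758_i_at, read 130.4 and 103.1 in cultured ovaries, 170.5 and 86 in P4 ovaries, and 282.2 and 148.4 in P0 ovaries. The suffix _i marks a probe set with fewer probes than the design standard. The P0 arrays were the highest within each pair from one chip batch, but the P4 and P0 values overlapped, while both cultured values lay below both P0 values. Bdnf S76799_at read 32.5 and 56.1 in cultured ovaries, 34.9 and 29.3 in P4 ovaries, and 12.6 and 37.3 in P0 ovaries. Here the P0 arrays held both a value under the control level and one above both P4 values, so these groups overlapped. The group means of these probe sets ran in opposite orders, highest in P0 for the first and highest in cultured ovaries for the second. The other 5 Bdnf probe sets read between 0.4 and 21.8, with a single value above 20 (S71201mRNA_at on P0 replicate 2).

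Ntf3, which encodes neurotrophin 3, the ligand of TrkC, varied little. Its probe set M34643_at read 80.8 and 105.1 in cultured ovaries, 71.2 and 89 in P4 ovaries, and 90.5 and 82.1 in P0 ovaries. Every pair of groups overlapped, and the highest value was 1.48 times the lowest. The second Ntf3 probe set, E03082cds_s_at, read 13.6 and 14.5 in cultured ovaries and 11 and 10.1 in P4 ovaries. In P0 ovaries it read 15.5 and 17.3. All these values lay under the control level. The groups did not overlap, with P0 highest and P4 lowest, but the probe set was too dim for the main test. In a test without the filter on dim probe sets, given below, it was not called. No difference between groups is drawn from this order.

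Ngfr encodes the p75 receptor, a member of the tumour necrosis factor receptor family that binds every neurotrophin and their uncleaved precursors. Ngfr X05137_at was the steadiest of the 15, at 175.4 and 184.4 in cultured ovaries, 167.2 and 206 in P4 ovaries, and 167.6 and 190.9 in P0 ovaries. Its highest value was 1.23 times its lowest, and all 3 groups overlapped. Ngfr U25650_f_at read 358.5 and 265.5 in cultured ovaries, 255.7 and 456.7 in P4 ovaries, and 296.5 and 488 in P0 ovaries. Its 2 highest values came from the P4 and P0 arrays of chip batch B and 2 of its 3 lowest from those of batch A. It thus differed more between these batches, which are also the replicate pools, than between P4 and P0. The suffix _f marks probes that match a family of similar sequences, and its value can include other transcripts.

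The Trk receptors read low. Ntrk2, which encodes TrkB, had M55291_at between 3.5 and 8.5 and M55293_at between 2.1 and 14.2 over the 6 arrays, so no level of TrkB mRNA above the controls was measured in any group. Ntrk3, which encodes TrkC, had S60953_s_at at 21.1 and 34.9 in cultured ovaries, 39.4 and 32.2 in P4 ovaries, and 46.8 and 45.3 in P0 ovaries. Both P0 values lay above all 4 others, and the cultured and P4 values overlapped. The second Ntrk3 probe set, S62933_i_at, read 0.2 to 7.8, below the controls on every array. In whole ovaries, fewer cells of a type and less RNA per cell cannot be told apart.

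**Figure D2:**
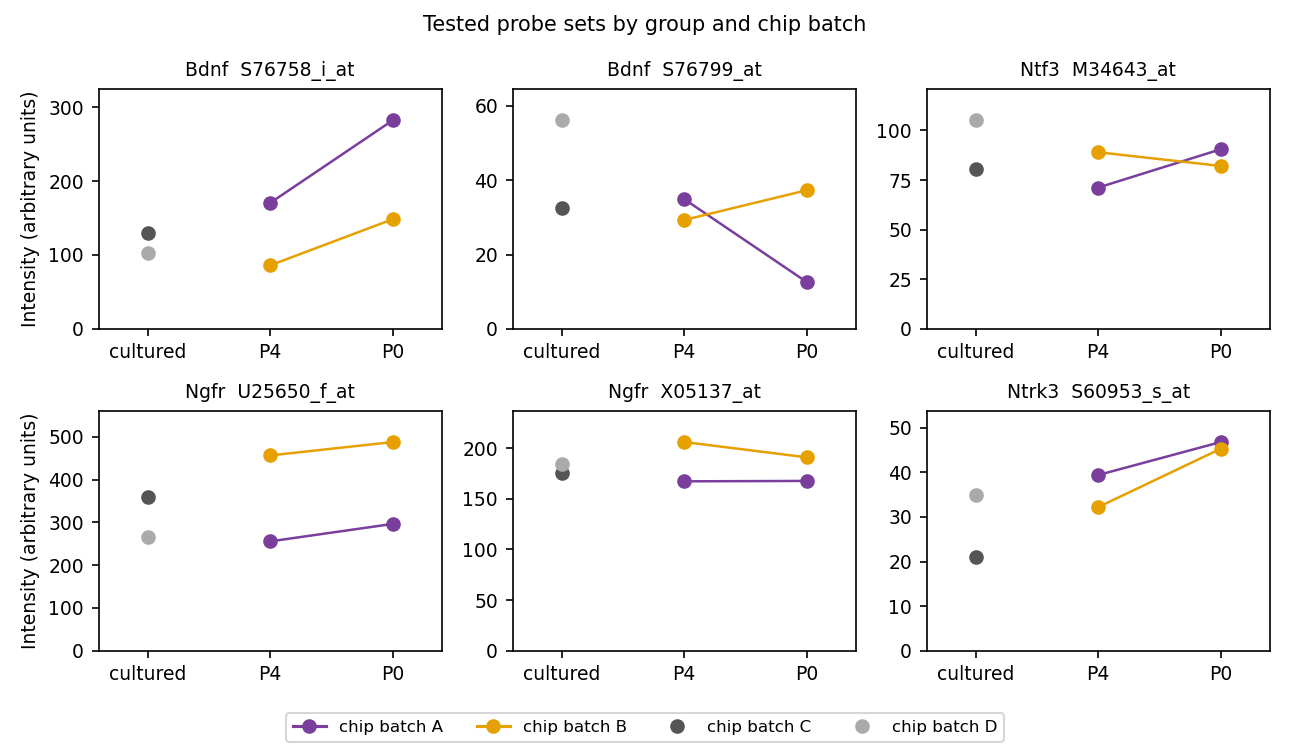
Intensity (arbitrary units) of the 6 tested probe sets by group, coloured by chip batch, with lines joining P4 and P0 arrays of one batch. Bdnf S76758_i_at is lower at P4 than at P0 in both batches (170.5 against 282.2 in A, 86 against 148.4 in B), while Bdnf S76799_at goes opposite ways.

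The filter on dim probe sets, a mean log2 value of 4.49, left 6 of the 15 for testing and removed 9. The dimmest one tested was Bdnf S76799_at, with a mean of 5.30, and the brightest one removed was Bdnf D10938exon_s_at, with 4.41. Changes are differences of log2(intensity + 7.7) between group means, tested with limma on all 6 arrays, and intervals are 95% intervals. Cultured and P4 ovaries are each set against the same P0 arrays, so these comparisons are not independent.

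Between P4 and P0 ovaries, the days in which rat germ cells become enclosed in primordial follicles, no neurotrophin or receptor probe set passed the test. None of the 6 was called, against 1.08% of all 6118 tested, and none had an unadjusted p under 0.05, against 13% of all. The largest difference was that of Bdnf S76758_i_at, with means of 128 ± 59.8 at P4 and 215 ± 94.6 at P0 (SD, n = 2 each) and a log2 change of -0.72 (interval -1.54 to 0.10, adjusted p = 0.456). Within chip batches A and B it was -0.70 and -0.74. With the batch as a fixed block in a fit of the P4 and P0 arrays the adjusted p was 0.0488, when 5.13% of all probe sets were called, and with the batch as a random block over all 6 arrays it was 0.156. The change was -0.27 without P0 replicate 1 and -0.26 without P4 replicate 2, against -1.17 without P0 replicate 2 and -1.18 without P4 replicate 1. Ntrk3 S60953_s_at, the TrkC probe set, had means of 35.8 ± 5.09 and 46 ± 1.06, a log2 change of -0.31 (interval -0.94 to 0.32, adjusted p = 0.718) and -0.21 and -0.41 within the batches. It was the only one of the 6 whose P4 and P0 arrays did not overlap, against 44.2% of all tested probe sets.

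The remaining 4 had wide intervals around small differences. Bdnf S76799_at had a log2 change of 0.39 (interval -0.50 to 1.28, adjusted p = 0.756), made of a difference of 1.07 within batch A but -0.28 within batch B. For Ntf3 M34643_at it was -0.10 (interval -0.63 to 0.42), or -0.32 within batch A but 0.11 within batch B. For Ngfr X05137_at it was 0.05 (interval -0.43 to 0.53) and for Ngfr U25650_f_at -0.15 (interval -0.88 to 0.58). For scale, the smallest change called among all probe sets in this comparison was 0.99.

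Ovaries cultured from birth for 7 days, set against P0 ovaries, showed the lowest p-values of these genes, and again none was called. This was 0 of 6, against 5.43% of all tested probe sets, with none at an unadjusted p under 0.05 against 20.8% of all. Ntrk3 S60953_s_at had means of 28 ± 9.76 in cultured and 46 ± 1.06 in P0 ovaries (SD, n = 2 each), a log2 change of -0.62 (interval -1.25 to 0.01, adjusted p = 0.248). Bdnf S76758_i_at had means of 117 ± 19.3 and 215 ± 94.6, a log2 change of -0.78 (interval -1.60 to 0.04, adjusted p = 0.265). In both, the cultured arrays lay below the P0 arrays without overlap, 2 of 6 probe sets against 50.4% of all tested. The value for Bdnf moved to -0.34 without P0 replicate 1 and -1.23 without P0 replicate 2, and that for Ntrk3 to -0.90 without cultured replicate 2 and -0.34 without cultured replicate 1.

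The second Bdnf probe set pointed the other way. Bdnf S76799_at had means of 44.3 ± 16.7 in cultured and 25 ± 17.5 in P0 ovaries and a log2 change of 0.74 (interval -0.15 to 1.64, adjusted p = 0.331), which was 0.17 without P0 replicate 1 and 1.32 without P0 replicate 2. Ntf3 M34643_at had a log2 change of 0.09 (interval -0.44 to 0.62) and Ngfr X05137_at one of 0.01 (interval -0.47 to 0.49), so that for the p75 probe set a change by more than about 0.49 either way lay outside the interval. Ngfr U25650_f_at had one of -0.30 (interval -1.02 to 0.43).

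Between cultured and P4 ovaries none of the 6 was called, against 2.78% of all tested, none had an unadjusted p under 0.05, against 14% of all, and no probe set had groups without overlap, against 43.6% of all. Log2 changes ran from -0.31 for Ntrk3 S60953_s_at (interval -0.94 to 0.32, adjusted p = 0.73) to 0.35 for Bdnf S76799_at (interval -0.54 to 1.24, adjusted p = 0.803). Bdnf S76758_i_at, the probe set with the largest difference from P0, had one of -0.06 here (interval -0.88 to 0.76). Each cultured array came from a chip batch of its own, so no value within a batch can be given for culture. Differences between cultured ovaries and the other groups therefore cannot be told apart from differences between chip batches. With all 15 probe sets kept in a test without the filter, 0 were called in any comparison (lowest adjusted p = 0.351), and 0 had an unadjusted p under 0.05. Of all 8740, that test called 23 for P4 against P0, 259 for cultured against P0 and 146 for cultured against P4. Such shares are too low for 0 calls among 15 to set these genes apart.

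**Figure D3:**
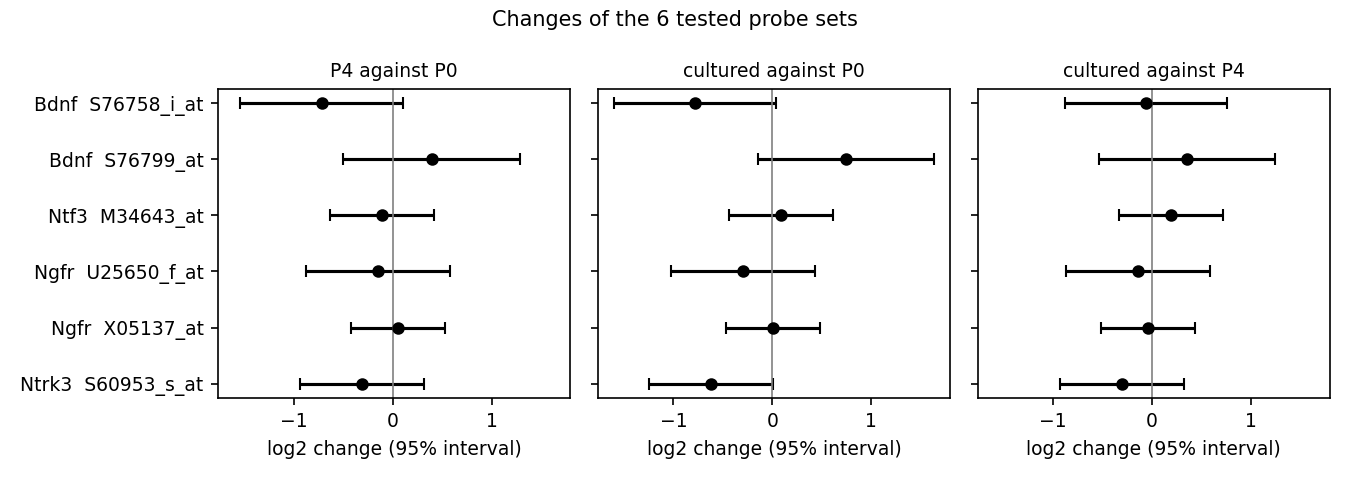
Log2 changes of the 6 tested probe sets in the 3 comparisons, with 95% intervals from limma as bars. Every interval includes 0, and those of Bdnf S76758_i_at and Ntrk3 S60953_s_at in cultured against P0 end nearest to it (0.04 and 0.01).

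The wider pathway list held 66 genes, from precursor processing to the kinases downstream of the receptors. An own probe set was found for 40, and 36 were tested. None was called in any comparison, against the 1.08%, 5.43% and 2.78% of all tested probe sets given above. For P4 against P0, 0 of the 36 had an unadjusted p under 0.05 (13% of all), for cultured against P0 4 did, or 11.1% (20.8% of all), and for cultured against P4 also 4 (14% of all). These counts take 1 probe set for each gene. Over all 62 tested probe sets of these genes, 1, 6 and 7 had an unadjusted p under 0.05 in this order of comparisons, and none was called. The median log2 changes in this order were 0.10, -0.09 and -0.17, against -0.05, -0.08 and -0.04 over all tested probe sets.

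Among other ligands and receptors, Ntf4 encodes neurotrophin 4, the second TrkB ligand. On M86742cds_s_at it read 19.6 and 25.2 in cultured ovaries, 21.4 and 49.7 in P4 ovaries, and 28 and 42.1 in P0 ovaries. The P4 values overlapped those of both other groups. Both cultured values lay below both P0 values, and 50.4% of all tested probe sets likewise had no overlap in this comparison (log2 change -0.49, adjusted p = 0.49). The other Ntf4 probe set, Y07659exon_at, read 5.4 to 19.9, under the control level on every array, and was not tested. Sort1, encoding sortilin, the partner of p75 in binding precursors, lay near the control level on its tested probe set, with 17.5 and 17.1 in cultured ovaries, 10.7 and 21.8 in P4 ovaries, and 20 and 23.6 in P0 ovaries. Its untested probe set, AF023621_at, read 9.5 and 5.7, 9 and 23.5, and 22.5 and 27.9 in the same order of groups. Bex3, encoding a protein that binds the p75 cell death domain, was bright throughout, at 1619.5 and 1616.9 in cultured ovaries, 1720 and 1604.9 in P4 ovaries, and 1804 and 2126.6 in P0 ovaries (adjusted p of 0.354 to 0.952 over the comparisons).

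In P4 against P0 the pathway genes of smallest p were the kinase gene Map2k2, the precursor convertase gene Pcsk6, the insulin receptor substrate gene Irs2 and Arc, a neuronal immediate early gene. Map2k2 averaged 516 ± 121 at P4 and 369 ± 22.4 at P0 (SD, n = 2 each; log2 change 0.46, adjusted p = 0.445). Pcsk6 averaged 386 ± 56 and 280 ± 18.1 (log2 change 0.45, adjusted p = 0.446), and its second probe set, D31854_s_at, had a log2 change of 0.76 (adjusted p = 0.28). Irs2 read 12.6 and 15.3 at P4, both under the control level, and 25.1 and 39.7 at P0 (adjusted p = 0.456). Arc had a log2 change of -0.58 (adjusted p = 0.466).

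In culture the smallest p among pathway genes was that of Ptpn11, which encodes the phosphatase SHP2 that acts in Ras activation downstream of receptor kinases. It read 4 and 8.8 in cultured ovaries, 33.5 and 23.1 in P4 ovaries, and 25.4 and 21.7 in P0 ovaries. Both cultured values lay under the control level and the others above it, with a log2 change of -1.17 against P0 (adjusted p = 0.0852) and -1.36 against P4 (adjusted p = 0.073, or 0.0401 without the variance trend). Its 4 other probe sets were too dim to test. Vgf, a neurotrophin-induced secreted peptide gene of neurons, averaged 31.8 ± 5.44 in cultured ovaries, 55 ± 3.75 in P4 ovaries and 59.9 ± 17.4 in P0 ovaries (log2 change -0.76 against P0, adjusted p = 0.143, and -0.67 against P4, adjusted p = 0.286). Plat, tissue plasminogen activator, which generates the plasmin that cleaves proBDNF, averaged 498 ± 32.3, 366 ± 2.26 and 349 ± 38.6 in the same order of groups (log2 change 0.51 against P0, adjusted p = 0.164). Cpe, the carboxypeptidase that sorts and trims secretory precursors, had a log2 change of -0.64 against P0 (adjusted p = 0.152), and Map2k2 had one of -0.54 against P4 (adjusted p = 0.317). Probe sets of the kinase gene Map2k1 disagreed: rc_AI178835_at had a log2 change of -0.88 against P0 (adjusted p = 0.141), and L04485mRNA_s_at, the one counted for this gene, had one of 0.38 (adjusted p = 0.33).

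**Figure D4:**
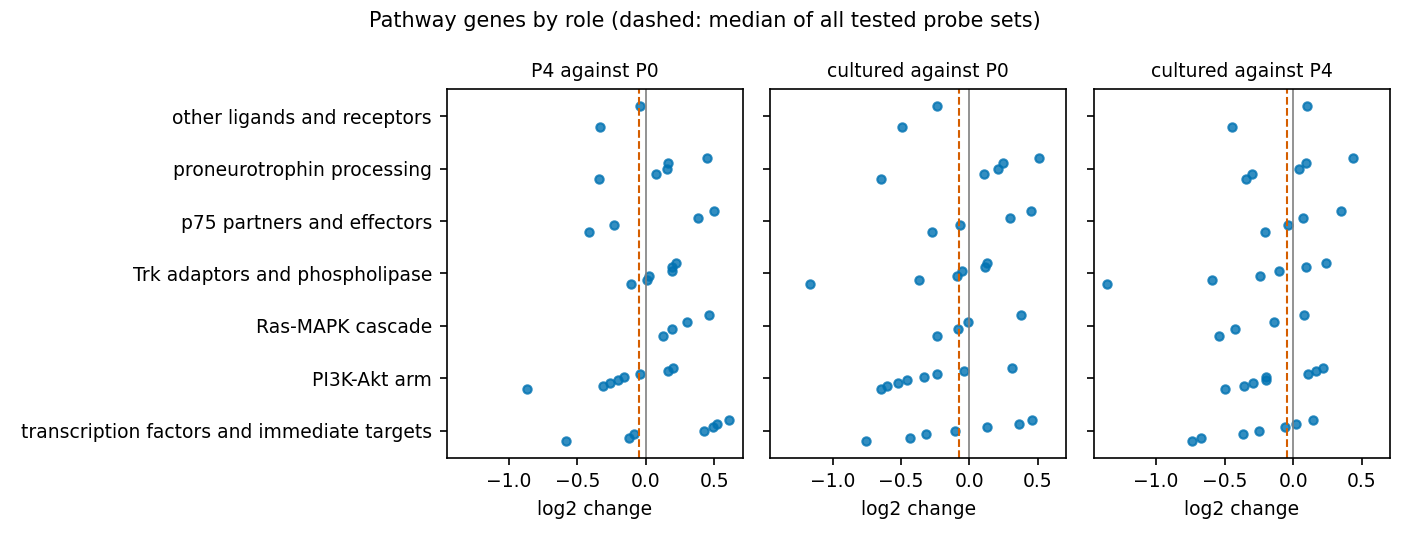
Log2 changes of the 36 tested pathway genes by role in the 3 comparisons, 1 point a gene, with the median of all 6118 tested probe sets dashed. The points lie on both sides of 0 in each comparison, and the lowest one, Ptpn11, is at -1.17 in cultured against P0 and -1.36 in cultured against P4.

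Nerve fibres and Schwann cells, which carry p75 and Trk receptors in many tissues, were followed through 15 marker genes, of which 10 were measured. Of these, 3 were above 20 on all 6 arrays (Th, Prph and Gap43) and 3 on none (Nefm, Dbh and the Schwann cell regulator Sox10, at 1.2 to 4.5). The summed intensity of the 10 was 339 to 410.5 in cultured ovaries, 234 to 251 in P4 ovaries and 289.2 to 291 in P0 ovaries. Without S100b the other 9 summed to 215.8 to 216.9 in cultured ovaries, 220.8 to 230.4 in P4 ovaries and 276.2 to 284 in P0 ovaries, so that the cultured sum was then the lowest. S100b, a calcium-binding protein of glia and of other cells, was the 1 marker called: it read 123.2 and 193.6 in cultured ovaries, 13.2 and 20.6 in P4 ovaries, and 13 and 7 in P0 ovaries (log2 change 3.22 against P0, adjusted p = 0.000538, and 2.74 against P4, adjusted p = 0.00177). Th, the enzyme of catecholamine synthesis in sympathetic fibres, read 58.2 and 73.3 in cultured ovaries, 69.7 and 62.1 in P4 ovaries, and 61.9 and 68.4 in P0 ovaries, all groups overlapping. The part of nerve cells in the neurotrophin values was not tested.

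Markers of other cell types were called between the same groups. Summed over 5 oocyte markers, intensity was 3005.7 to 3137.6 in cultured ovaries, 3819.5 to 4132.5 in P4 ovaries and 1065 to 1197.3 in P0 ovaries, and 3 of the 5 were called against P0 at P4 and in culture alike. Over 6 granulosa markers the sums were 1171.1 to 1269.8, 2355.4 to 3321.1 and 1509.1 to 1533.2 in the same order, with 2 called at P4 against P0, both higher (Inha and Cyp19a1). The 2 called in culture against P0 went opposite ways, with Fst lower (log2 change -1.64) and Krt18 higher (2.21), and of the 4 called in culture against P4, Inha, Amh and Cyp19a1 were lower and Krt18 was higher (2.57). Over 4 macrophage and leukocyte markers they were 658.9 to 982.3, 143.3 to 201.3 and 267.6 to 298.6, with 3 called in culture against either other group. Over 3 erythroid markers they were 103 to 124.5, 2145.7 to 2900.6 and 3896.3 to 4009.1, with 2 called in culture against P0 and 1 against P4. Of the smooth muscle and pericyte (6), endothelial (3) and stromal (5) markers, 1 was called in all, a stromal one in culture against P0.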

How the data were processed

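Groups and replicate numbers came from the sample titles, with 2 arrays in each of 3 groups. The deposited values are linear intensities. The authors had scaled them, since each of the 6 columns has a mean of 125.2 once 2% of the values are trimmed at both ends, and medians of 37.2 to 42.2. The summarising algorithm is not given in the sources used here, and no detection calls or scanner files were used. The values were kept without further scaling. To each value 7.7 was added, the 20th percentile of the table, before taking log2, so changes of dim probe sets are understated. The 59 control probe sets and the 2622 others whose mean log2 value lay under the 30th percentile were left out, and 6118 of 8799 were tested. In R 4.3.3, limma 3.58.1 fitted the 3 group means jointly, with a variance trend over intensity and with 3 residual plus 6.45 prior degrees of freedom. The procedure was tested on simulated data. For P4 against P0 it recovered 53 of 100 changes of 1 log2 unit and 99 of 100 changes of 2, with 7 false calls. The simulated noise was independent between arrays, with a spread set by intensity and no chip batch effect. The rates may therefore differ for the real arrays. Tests were two-sided, with Benjamini-Hochberg adjustment over all 6118, and an adjusted p under 0.05 was a call. With 2 arrays against 2, an exact permutation test cannot go below p = 0.33.

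Probe sets were matched by the symbol of the array's annotation, updated by gene number from RefSeq (GRCr8): 7018 carried 1 symbol, 308 several and 1473 none, and 6994 were matched. The pathway list used the brightest probe set of each gene. The members, the lists and the tests were chosen with earlier results of these data known. Named were every member probe set, pathway genes that were called, the 4 of smallest p in each comparison, and up to 3 bright markers of each cell type. Other genes were to be named by likeness to members whose group means spanned over 1 on the log2 scale, which 0 of the tested members did. The plan counted the opposite-strand probe sets of the spiked transcripts among the unspiked controls. These read far above the rest, so a level without them, chosen after the data were seen, is given as well.

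Per the labels, the chip identifiers form 4 batches: replicate 1 of P4 and of P0 belong to batch A, replicate 2 of both to batch B, and the cultured arrays to batches C and D. P4 and P0 arrays are therefore paired by number, and paired arrays deviated from their means together (r = 0.33 over probe sets, which are not independent). Cultured arrays are not paired with the others (-0.14 with P0 and -0.05 with P4). Alternatives were other pseudocounts, filters and normalization, no variance trend, the batch as a block and leaving out each array.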

Additional observations from a re-analysis of the deposited data

How the results depend on the processing

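No neurotrophin or receptor probe set was called under any alternative except Bdnf S76758_i_at for P4 against P0 with the replicate block (log2 change -0.72, adjusted p = 0.0488). With the chip batch as a random block its adjusted p was 0.156, and over all its alternatives the range was 0.0488 to 0.896. For cultured ovaries, whose numbers do not pair with the others, the block called none of the 6. Of all 6118 it called 566 against P0 and 165 against P4. Among the turned directions, quantile normalization gave Ngfr X05137_at -0.04 in cultured against P0. Leaving out single arrays, the log2 changes for P4 against P0 ranged from -1.18 to -0.26 (Bdnf S76758_i_at), -0.18 to 0.97 (Bdnf S76799_at), -0.09 to 0.20 (Ngfr X05137_at), -0.56 to 0.26 (Ngfr U25650_f_at) and -0.25 to 0.04 (Ntf3 M34643_at). For cultured against P0 they ranged from -0.08 to 0.10 (Ngfr X05137_at), -0.65 to 0.06 (Ngfr U25650_f_at) and -0.09 to 0.26 (Ntf3 M34643_at). For cultured against P4 they ranged from -0.53 to 0.40 (Bdnf S76758_i_at), -0.55 to 0.26 (Ngfr U25650_f_at) and -0.19 to 0.10 (Ngfr X05137_at). In the pathway list 1 gene, Ptpn11, was called without the variance trend, in cultured against P4. The number of probe sets above the controls in both arrays of a group was 3 at the level of 137, against 25.7% of all 8740. At the level of 20 it was 6, against 66.3% of all. Besides the 2 Ngfr probe sets, Bdnf S76758_i_at passed 137 in a group, on both P0 arrays (282.2 and 148.4). It did not pass on both arrays of P4 (170.5 and 86) or of cultured ovaries (130.4 and 103.1). Over the whole table, the 66 calls of P4 against P0 became 23 without the filter, 29 without the trend, 335 with the random block and 314 with the replicate block, and the 332 of cultured against P0 became 566 with the replicate block. Leaving out single arrays gave 15 to 55, 90 to 353 and, for cultured against P4 (170), 86 to 193. The causes were not tested. At the stricter filter Bdnf S76799_at and Ntrk3 S60953_s_at were not tested. The dim signals of 9 of the 15 probe sets and the 2 arrays a group limit what could be seen.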

Other observations

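Among the immediate early genes of the pathway list, which Trk signalling and many other stimuli induce, several differed more between chip batches than between P4 and P0 ovaries. Batch A held replicate 1 of both groups and batch B replicate 2, so chip batch and replicate pool cannot be told apart. Fos read 461.6 at P4 and 263.2 at P0 on the arrays of batch B, and 98.2 at P4 and 94.3 at P0 on those of batch A. Egr1 read 712.1 at P4 and 432 at P0 in batch B, and 299.5 at P4 and 236.8 at P0 in batch A, and Junb read 121 and 58.7 in batch B and 46.7 and 37.7 in batch A in the same order. The cultured arrays, each of a batch of its own, read 99.6 and 158.6 for Fos and 323.4 and 607 for Egr1. Arc and Nr4a1 of the same list did not follow this pattern. Arc read 78.1 at P4 and 94.6 at P0 in batch A, and 52.1 at P4 and 104.8 at P0 in batch B. Nr4a1 read 49.5 at P4 and 26.3 at P0 in batch A, and 46.1 and 38 in batch B on U17254_g_at. Its probe set U17254_at had a log2 change of the other sign (-0.27, against 0.49). Fos, Egr1 and Junb were singled out after their values were seen, and none of them was called in any comparison (adjusted p of 0.571 to 0.975).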
